A study of Homo sapiens with 17 samples.

Results

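The sites described here are the 839 genomic positions at which RNA polymerase had a long pausing time in both replicates of a run-on without sarkosyl. They were selected on the deposited pausing times themselves. Over the 13905 positions, matched by strand, that both sarkosyl-free tables listed, the 85% quantile of pausing time was taken in each table, and sites at or above it in both were kept. The other 13066 shared sites are the background. A contrast set, the 666 sites in the lowest 15% of both tables, is called short in both. It too was selected on these values.

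The cells were HEK293, an established line from human embryonic kidney, untreated apart from the run-on. Time-variant precision run-on sequencing (TV-PRO-seq) lets engaged polymerases in permeabilised cells add labelled nucleotides for a chosen time, and reads the 3′ ends of the nascent RNAs. Run-on lasted 0.5, 2, 8 or 32 min, in buffer with sarkosyl or in buffer free of it, with 2 replicates of each, giving 16 libraries of 17 samples. For each buffer and replicate number the authors deposited 1 table of positions, each with a pausing time derived from all 4 durations. The labels do not say whether replicates came from separate cultures, so the spread between tables may be technical.

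The tables listed 66089 and 41769 positions without sarkosyl and 48566 and 47713 with it. Read depth is unknown, and times are given in the deposited unit, which is not stated. Both sarkosyl tables listed 0 positions on the minus strand of chromosome X, against 1410 and 1011 in the sarkosyl-free tables. As a check of the labelled line, 4 or 5 of 9 genes typical of HEK293 held a site in each table, and at most 2 of 8 genes typical of the blood line KBM7 did. The HEK293 genes with sites were VIM, NEFL, KRT8, KRT18 and, except in sarkosyl-free replicate 2, WT1. PAX2, PAX8, NEFM and LHX1 held 0 sites in every table, so the check cannot establish the line.

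Polymerase II commonly pauses shortly after initiation, where the factors NELF and DSIF hold it until the kinase P-TEFb releases it. Pauses also occur within genes, near exon boundaries and past the poly(A) site. Polymerase III transcribes tRNA and other short genes and stops at runs of T. The polymerase of mitochondria makes long transcripts that are cut at the tRNAs lying between the other genes. Sarkosyl is a detergent that removes many proteins from chromatin while engaged polymerases go on elongating.

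Sequences around members are shown first, because the base at the site and the base before it differed between members and other shared sites. Each run has 30 bases, is written 5′ to 3′ on the site's strand and comes from GENCODE 29 transcripts on GRCh38. Capitals mark the listed base with the base on either side of it. The first set holds members within 300 bp downstream of an annotated start, or in exons away from starts, with guanine at the listed base. The start of any annotated transcript counts, also one that lies inside a gene.
RPL37, chr5:40827549-40827578, minus strand: tgtgtctttatacggtgggAGTataccctg
TFAM, chr10:58385431-58385460, plus strand: gcatgataacacacgccggAGGgtcgcacg
RACK1, chr5:181243868-181243897, minus strand: actgcaaggcggcggcaggAGAggttgtgg
HNRNPU, chr1:244860399-244860428, minus strand: ttcttcccttacaatggagAGTtttgcttt
HNRNPU, chr1:244851459-244851488, minus strand: attttatattcatgaacagAGTgtattctg
XIST, chrX:73842065-73842094, minus strand: tactatgtacctggtgaccAGTgtctctca
XIST, chrX:73846121-73846150, minus strand: gttcctgtgtattagacatGGAagcctccc
XIST, chrX:73845239-73845268, minus strand: gttcctgtgtaatagacatGGAagcctccc
The last pair lies 882 bp apart in XIST and differs at 1 base, A12T from the site at 73845248 to the site at 73846130, counted from 1 at the 5′ end.

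The second set shows where members lie at the ends of tRNA genes. In the mitochondrial runs the last letter is the listed base, and capitals mark it and the base before it.
MT-TD, chrM:7555-7584, plus strand: ttaaattataggctaaatcctatatatcTT
MT-TK, chrM:8335-8364, plus strand: attaagagaaccaacacctctttacagtGA
MT-TW, chrM:5550-5579, plus strand: ccctcagtaagttgcaatacttaatttcTG
MT-TL2, chrM:12307-12336, plus strand: aaaattttggtgcaactccaaataaaagTA
In the nuclear glutamate tRNA genes the middle capital is the first base past the gene and the capital before it is the gene's last base.
TRE-TTC4-1, chr1:16535269-16535298, minus strand: ttcgattcccggtcagggaATTgttttaca
TRE-TTC3-1, chr1:16872635-16872664, plus strand: ttcgattcccggccagggaATTgttttaca

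The selection cut at a pausing time of 9.80 in replicate 1 and 21.7 in replicate 2. At or above those values lay 15.2% and 15.5% of shared sites, and 6.03% were so in both, which is the set itself. Members ran from 9.80 to 200 with a median of 15.4 in replicate 1, and from 21.7 to 1000 with a median of 37.0 in replicate 2. Other shared sites had medians of 2.31 and 4.31. At the edge in replicate 1, 34 sites shared the value 9.80 just inside, 15 of them members, and 16 sites lay just outside at 9.71. In replicate 2, 77 sites shared 21.7, 23 of them members, and 64 lay just outside at 21.3. Rates, the reciprocals of the times, were deposited to 3 decimals, so the members took only 92 distinct values in replicate 1 and 45 in replicate 2. The time of 1000 is a rate of 0.001, the last deposited digit, so the longest times are coarse.

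**Figure D1:**
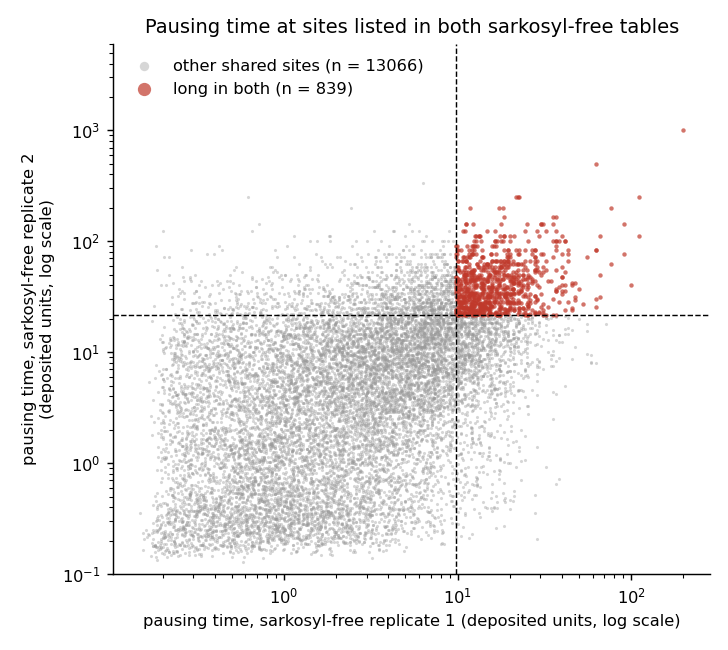
Pausing time at each of the 13905 shared sites in sarkosyl-free replicate 1 (x axis) and replicate 2 (y axis), in deposited units on log scales; dashed lines mark the selection values of 9.80 and 21.7. The 839 members fill the upper right corner by construction, and 1 site, in MT-TD, stands at 200 and 1000.

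Replicates ordered the shared sites only in part alike. Spearman's rho across the 13905 sites was 0.475, and across the members, whose range the selection cut, it was 0.179. Both describe sites that share their libraries. In replicate 1 alone, 1269 further sites were long, and in replicate 2 alone, 1317. The authors' SD of the rate, divided by the rate, had a median of 0.797 and 0.558 over members and of 1.86 and 1.36 over other shared sites.

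Of the shared sites, the longest pausing time in both tables was at the end of MT-TD, the mitochondrial aspartate tRNA gene, with 200 and 1000. Next by the smaller of its ranks came a site outside annotated genes on chromosome 12 at position 124910681, minus strand, with 111 and 250. RNU6ATAC2P, a pseudogene of the minor spliceosome's U6atac RNA, had 76.9 and 200, at 109 bp past its nearest annotated start. VTRNA1-3, which encodes a vault RNA made by polymerase III, had 62.5 and 500 at 84 bp. Both sites lie near the end of a short gene. The first is at position 56297580 in a gene that ends at 56297564, minus strand. The second is at 140726242 in one that ends at 140726246. A member 46 bp past a start of AC004834.1 had 90.9 and 143. In an intron of WBP11, a splicing factor gene, the times were 66.7 and 111. At each of these 6 sites the time was longer in replicate 2 than in replicate 1. Medians over members were 15.4 in replicate 1 and 37.0 in replicate 2, and over other shared sites 2.31 and 4.31.

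Among members of coding genes within 60 bp of a start, those of TFAM and RACK1 came first by the smaller of their ranks. TFAM is the mitochondrial transcription factor and RACK1 a ribosomal scaffold protein. The TFAM site, 17 bp past a start, had 37.0 and 100. The RACK1 site, 3 bp past a start, had 32.3 and 125. In exons away from starts, RPL37, a protein of the large ribosomal subunit, came first with 41.7 and 100, followed by RPS15A of the small subunit with 37.0 and 125. The zinc finger gene ZNF234 had an exonic site in its UTR at 35.7 and 143. An intronic site of RPS29, also of the small subunit, stood at 31.2 and 76.9.

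Long members also lay where no coding transcript is annotated on their strand. Antisense to FAM166A, a site on chromosome 9 at position 137243870, plus strand, had 62.5 and 83.3, and one antisense to RGPD2 on chromosome 2 at position 87824940, plus strand, had 41.7 and 100. Outside genes, a site in the tRNA gene TRX-CAT1-6 on chromosome 6 at position 27592848 had 111 and 111, and one on chromosome 14 at position 39185580 had 43.5 and 83.3. An intronic site of CR382285.1, a pseudogene model on chromosome 21, had 35.7 and 100. AC074101.1, a pseudogene model that overlaps SCN7A on the other strand, had 37.0 and 167 at 86 bp past its start. A member on a contig assigned to chromosome 22 without a position there had 20 and 43.5 without sarkosyl and 0.544 and 0.672 with it.

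Position in the annotation was not used in the selection. Members lay slightly more often within 60 bp downstream of an annotated start, 152 sites or 18.1%, against 14.9% of other shared sites. From 61 to 300 bp they were fewer, 77 sites or 9.18% against 11.8%. Together these make 27.3% against 26.7%, a difference smaller than the counting interval of the members' share. Exons away from starts held 146 members, 17.4% against 12.6%, and introns 201, 24.0% against 23.2%. Sites antisense to a gene made up 7.99% against 9.87%, and sites outside genes 20.9% against 22.7%. The mitochondrial genome held 14 members, 1.67% against 2.97%.

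Sites short in both lay elsewhere in the annotation. Of these, 5.11% lay in exons away from starts, against 17.4% of members, and 38.4% within 300 bp of a start, against 27.3%. Exons held 18.3% of the sites long in replicate 1 only and 13.1% of those long in replicate 2 only. Of the 146 exonic members, 75 lay in a UTR of a coding transcript and 26 in coding sequence, 51.4% and 17.8%, close to the 50.6% and 19.1% of other exonic sites. Of the 175 members outside genes, 84 lay within 2 kb past the end of a gene on the same strand, 48% against 35.0% of other such sites and 17.6% of those short in both. Upstream antisense positions within 1 kb of a start held 46 members, 5.48% against 6.24%. The choice by replicate moved both classes. The exon share of sites chosen from replicate 1 alone was 5.90 percentage points above that of other sites, and of those chosen from replicate 2 alone 2.22 points above. Sites chosen from replicate 1 alone differed from other sites by -6.91 percentage points in the share within 300 bp of a start, and those chosen from replicate 2 alone by -0.0266 points.

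**Figure D2:**
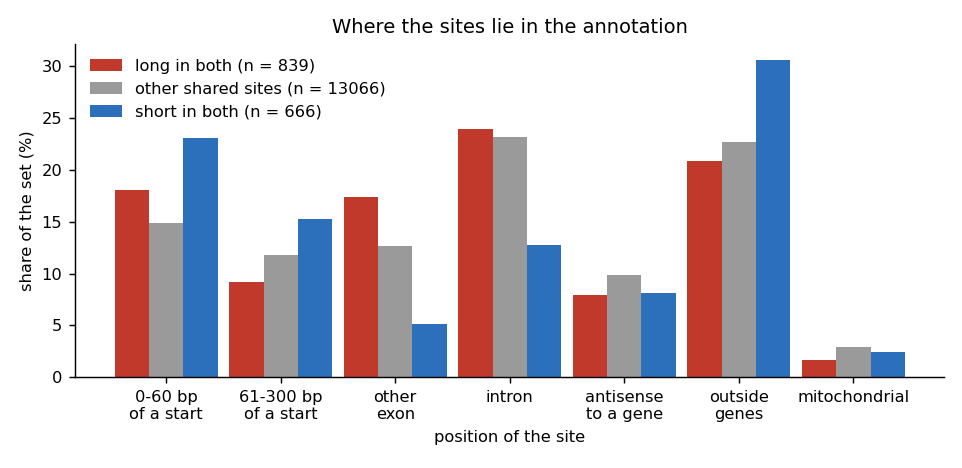
Share of each set of sites (y axis, %) by position in the annotation (x axis), with red bars for the 839 members, grey for the 13066 other shared sites and blue for the 666 sites short in both. Exons away from starts hold 17.4%, 12.6% and 5.11% of the sets, in that order.

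Other small RNA genes went both ways. In misc_RNA genes, the annotation's class for vault, Y and similar RNAs, lay 6 members, 0.715% against 0.436% of other shared sites. In snoRNA genes, whose RNAs guide the modification of ribosomal RNA, lay 3 members, 0.358% against 2.20% of other shared sites. In miRNA genes there was 1, 0.119% against 0.689%, and in snRNA genes 3, 0.358% against 0.452%. Minus-strand sites made up 56.0% of members and 49.4% of other shared sites, and chromosome X 6.20% against 4.13%.

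Base composition was not used in the selection either. A window of 30 bases before and 10 after the site could be read for 375 members, 44.7%, and 5690 other shared sites, 43.5%. Below 80% coverage, a check over the whole set is void. It is sound for 2 classes, sites within 60 bp of a start, where 89.5% of members and 88.4% of other sites have a window, and exons away from starts, with 97.3% and 96.7%.

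In both classes members more often had guanine at the listed base and adenine just before it, with positions read as counted from 1. Read as counted from 0, the excess of members over other shared sites, over all windows, goes from 17.5 to 2.93 percentage points for guanine and from 26.6 to -0.416 for the pair AG. Within 60 bp of a start, guanine stood at 103 of 136 members, 75.7% against 63.6% of other sites, and adenine before the site at 50.7% against 25%. In exons, guanine stood at 109 of 142 members, 76.8% against 62.3%, and adenine before it at 62.0% against 43.2%. The pair AG was counted with G at the listed base and on the site's strand only. It was present at 68 of 136 members within 60 bp of a start, 50% against 22%. In exons it was present at 79 of 142 members, 55.6% against 38.3%. HNRNPU shows the pair in 4 of its 5 members, among them both runs printed above. RPL37 shows it in 3 of its 5 members with a sequence.

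The pair CG, with C just before the listed base, went the other way. It was present at 3.68% of members within 60 bp of a start, against 33.4% of other sites there. In exons it was at 1.41% of members against 7.89%. Over all windows, classes mixed, it was at 2.4% of members, 20.5% of other shared sites and 36.1% of sites short in both. AG over the same windows was at 53.1%, 26.4% and 6.80%. Thymine followed the site in 54.7% of members and 46.3% of other shared sites, and cytosine in 7.73% and 20.8%. Sites long in 1 replicate only had shares of guanine and AG near those of the members, but a larger share of CG. Guanine stood at the site in 71.3% of those long in replicate 1 only and 77.1% of those long in replicate 2 only, beside 75.7% of members, and AG in 46.6% and 49.7%, beside 53.1%. CG, with C just before the site, was at 8.50% and 11.3% of them, beside 2.4% of members. These shares over mixed classes describe only the sites with a window.

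Longer motifs were counted in the 30 bases before the site within the same 2 classes. TTTT lay there in 31 exonic members, 21.8% against 11.0% of other exonic sites. Within 60 bp of a start it lay there in 6 members, 4.41% against 4.60%. GGGG lay before 4.23% of exonic members against 4.89%, and before 19.9% of members within 60 bp of a start against 16.9%. AATAAA, the core of the poly(A) signal, was there in 3 exonic members, 2.11% against 2.01%, and in 1 member within 60 bp of a start.

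**Figure D3:**
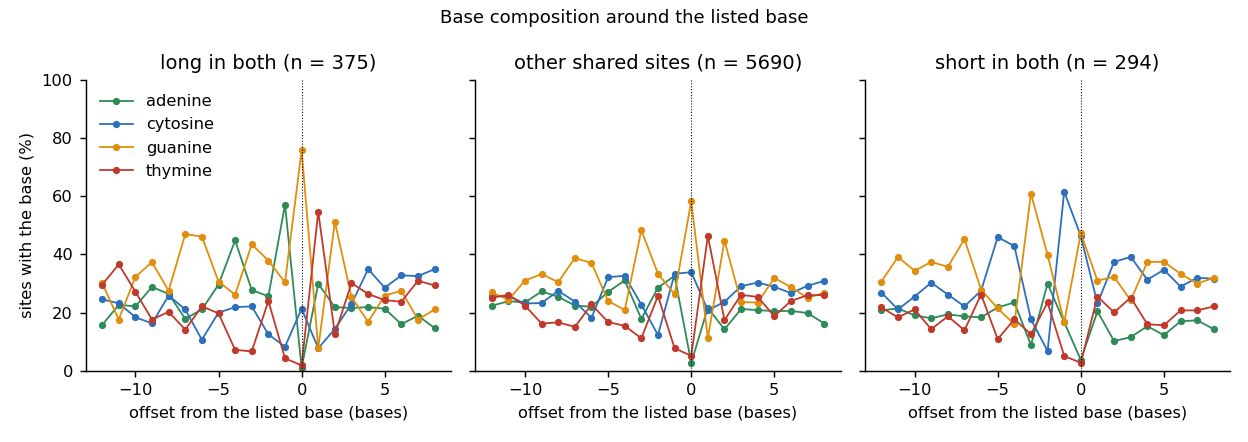
Share of sites with each base (y axis, %) by offset from the listed base (x axis, in bases, 0 being the listed base), for 375 members, 5690 other shared sites and 294 sites short in both. Only sites with a window are drawn, 44.7% of members, with classes mixed. Among these, guanine reaches 75.7% of members at offset 0 with adenine at 57.1% before it. Cytosine stands before the site in 61.6% of the sites short in both.

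Times by base were also taken over each whole table. The sarkosyl-free times are those the selection used, so their differences are a description and no support for the values above. Sites with guanine exceeded sites with cytosine at the listed base by 0.72 in median log2 time in replicate 1 and 1.71 in replicate 2. With sarkosyl the differences were 0.13 and 0.09. For adenine against cytosine just before the site they were 1.45 and 1.93 without sarkosyl, and 0.31 and -0.08 with it. Guanine made up 44.3% and 71.7% of the listed bases with a window in the sarkosyl-free tables, and cytosine 50.6% and 23.2%. In the sarkosyl tables guanine made up 22.1% and 21.7%, and cytosine 74.1% and 72.4%.

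Most members were absent from the sarkosyl tables, which the selection did not use. Sarkosyl replicate 1 listed 77 members, 9.18% with an exact 95% interval of 7.31% to 11.3%, against 34.9% of other shared sites. Replicate 2 listed 41, 4.89% with an interval of 3.53% to 6.57%, against 26.4%. The difference was -25.8 and -21.5 percentage points, -23.6 ± 3.04 (SD, n = 2 tables), larger than the spread between the tables. An exact sign-flip test over 2 tables cannot go below a two-sided p of 0.5. Neither table listed 749 members, 89.3% against 61.2%, and both listed 28, 3.34% against 22.5%. The intervals cover counting error over sites only.

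This difference held with the minus strand of X left out, at 9.64% against 35.9% and 5.13% against 27.0%. It was seen within each large class. Within 60 bp of a start 16.4% and 9.21% of members were listed, against 50% and 32.1% of other sites, and in exons 4.11% and 2.05%, against 25.7% and 19.5%. It was also seen with the listed base held constant, among the 375 members and 5690 other shared sites with a window. Windows were few in introns, for 5 of 201 members, and outside genes, for 8 of 175. Of the 284 members with guanine, 9.86% and 4.58% were listed, against 33.8% and 21.5% of other guanine sites. Of the 80 with cytosine, 15% and 6.25% were listed, against 49.6% and 38.0%. Sites long in replicate 1 only were listed at 14.3% and 9.46%, those long in replicate 2 only at 14.9% and 10.5%, and sites short in both at 59.6% and 46.7%. A site can be absent from a table through a lack of reads or through the authors' site calling. The part of either was not tested.

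Among members listed with sarkosyl, no difference from the background in the share of long times was detectable, while short times made up a larger share. Their median time was 1.01 and 1.02, against 1.15 and 1.28 for other shared sites, a log2 difference of -0.19 and -0.33 (-0.26 ± 0.10, SD, n = 2 tables). At or above the 85% quantile of shared sites in each sarkosyl table, where the background is 15% and 15.1%, lay 8 of 77 members, 10.4%, and 4 of 41, 9.76%. The exact 95% intervals, 4.59% to 19.4% and 2.72% to 23.1%, include the background. At or below the 15% quantile lay 19 of the 77 members, 24.7%, and 16 of the 41, 39.0%. Of other shared sites, 14.9% and 14.8% lay there. The short share was not recomputed under other settings. The sign of the time difference was not stable. It became 0.15 when the selection was made at the 90% quantile, and 0.17 when sites were chosen from sarkosyl-free replicate 1 alone. With those sites the share long with sarkosyl was 4.36 percentage points above that of the rest.

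**Figure D4:**
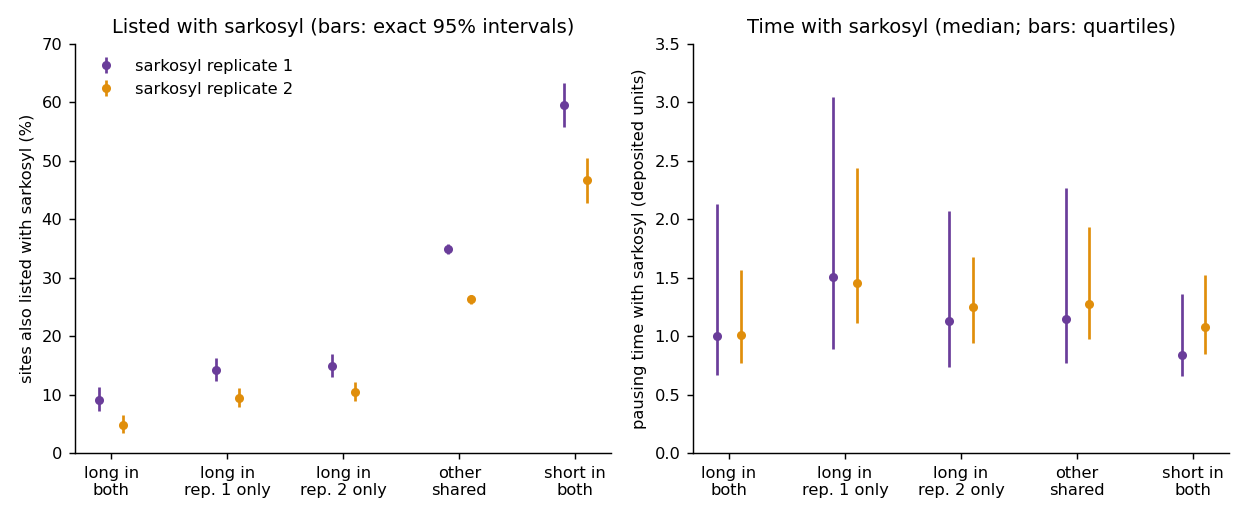
Left, share of each set of sites that is listed in each sarkosyl table (y axis, %), with exact 95% intervals; right, median pausing time of the listed sites with sarkosyl (y axis, deposited units), with bars from the lower to the upper quartile. The members have the lowest listed shares, 9.18% and 4.89%, and median times of 1.01 and 1.02.

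Of the 28 members listed in both sarkosyl tables, some with the shortest and the longest sarkosyl times are given as examples. Their times without sarkosyl are long by selection and the tables are not known to share a scale, so no change between buffers is read from them. A site in SNHG12, a host gene of small nucleolar RNAs, lay 21 bp past an annotated start inside the gene. The site is at position 28581832, and the gene begins at 28583132 on the minus strand. Its times were 10 and 58.8 without sarkosyl and 0.483 and 0.668 with it. TRIM36, 16 bp past a start, had 10.3 and 32.3 without it and 0.503 and 0.661 with it. Near annotated starts in the non-coding LINC00205 and EPB41L4A-AS1 the sarkosyl times were 0.498 and 0.735, and 0.570 and 0.695. All of these lay below the median of their sarkosyl table. Among the longest with sarkosyl was a UTR site of JUN, an immediate early transcription factor, with 11.0 and 22.7 without sarkosyl and 6.17 and 5.81 with it. URB1-AS1, 76 bp past a start, had 24.4 and 33.3 without sarkosyl, and 14.5 and 3.80 with it.

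These 4 members with the shortest and 2 with the longest sarkosyl times among those with a readable sequence are printed below with the same capitals as above. URB1-AS1 and LINC00205 come from RefSeq promoter windows on GRCh38.p14.
SNHG12, chr1:28581823-28581852, minus strand: cggtgtcgacttactagctGCAagcctctg
TRIM36, chr5:115169841-115169870, minus strand: cgggattcccggggtagtcGCTgggagcaa
LINC00205, chr21:45288102-45288131, plus strand: ggctgtggttcgcggcggtGCTgtcgcggg
EPB41L4A-AS1, chr5:112160891-112160920, plus strand: tgtggtttttgctctgggtCCTctgggatg
JUN, chr1:58780894-58780923, minus strand: tggcagattttacaaaagaTGTatccttcc
URB1-AS1, chr21:32393186-32393215, plus strand: catgtgagtttgctgtaccGGTtgtcccgg
The first 4 have cytosine at the listed base and the last 2 have guanine. With so few sites this is a description.

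Of the annotated features compared, ends of tRNA genes had the highest share of members among their shared sites, a feature noticed after the values were seen. Within 1 bp of the end of a RefSeq tRNA gene, taken in the direction of the site, lay 23 members, 2.74% of the set against 0.230% of other shared sites. They make up 43.4% of the shared sites at such ends, beside 6.03% over all shared sites. The RefSeq table gives no strand, so a site's end is the one it would reach by its own direction.

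In mitochondria 11 of 13 shared sites at tRNA ends were members, with medians of 27.0 and 83.3. Elsewhere in or near mitochondrial tRNA genes it was 3 of 40, with medians of 1.17 and 0.415. These sites lie on either strand, and some are in genes without a shared site at the end. On the plus strand the site was the last annotated base for the tRNAs of phenylalanine (MT-TF), isoleucine, tryptophan, lysine, glycine, arginine, the second leucine and threonine. For MT-TD it was the base before the last. MT-TW had 22.2 and 250, MT-TL2 35.7 and 167, MT-TK 40 and 111, and MT-TF 11.8 and 200. On the minus strand it was 1 base past the end, with 37.0 and 100 for the cysteine tRNA and 16.9 and 66.7 for the glutamine tRNA. The ends that missed the set were those of histidine, with 10 and 17.5, and of the first serine, with 8.62 and 40.

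Only the glutamine site was listed with sarkosyl, in both tables, at 1.87 and 1.52. The tables hold 3′ ends only, and ends of nascent and of processed RNA cannot be told apart in them.

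Some members at mitochondrial tRNA genes had a twin on chromosome 1. Between positions 629062 and 634922, a run annotated as mitochondrial pseudogenes from MTND1P23 to MTCO3P12, lay 5 members of 126 shared sites. Each sat at the matching place of a mitochondrial member, 625170 bases away within 2 bases. The twin of MT-TW had 21.7 and 250, beside 22.2 and 250, and the twin of MT-TK had 38.5 and 100, beside 40 and 111. The other pairs were 37.0 and 90.9 beside 37.0 and 100 for the cysteine tRNA, 17.9 and 66.7 beside 16.9 and 66.7 for the glutamine tRNA, and 16.9 and 100 beside 17.9 and 100 for a site in MT-TA. Which copy the reads came from cannot be told from the tables.

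At nuclear tRNA genes 12 of 40 sites at ends were members, against 1 of 289 elsewhere in or near these genes. Glutamate tRNAs made up 9 of the 12. The genes with anticodon CTC had 5 members of 6 sites, all 1 base past the end, at 12.2 to 13.7 in replicate 1 and 83.3 to 100 in replicate 2. Those with TTC had 4 of 6, at 10.8 to 14.5 and 30.3 to 55.6. The 3 glutamate sites that missed the set did so in replicate 1, at 5.99, 6.54 and 8.93. In the same cluster on chromosome 1, glycine tRNA genes of anticodon TCC had 4 sites past their ends at 10.3 to 15.2 in replicate 1 but 6.67 to 10.5 in replicate 2, and none was a member. Copies of a tRNA gene are near identical, so the counts of these sites may not be independent.

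**Figure D5:**
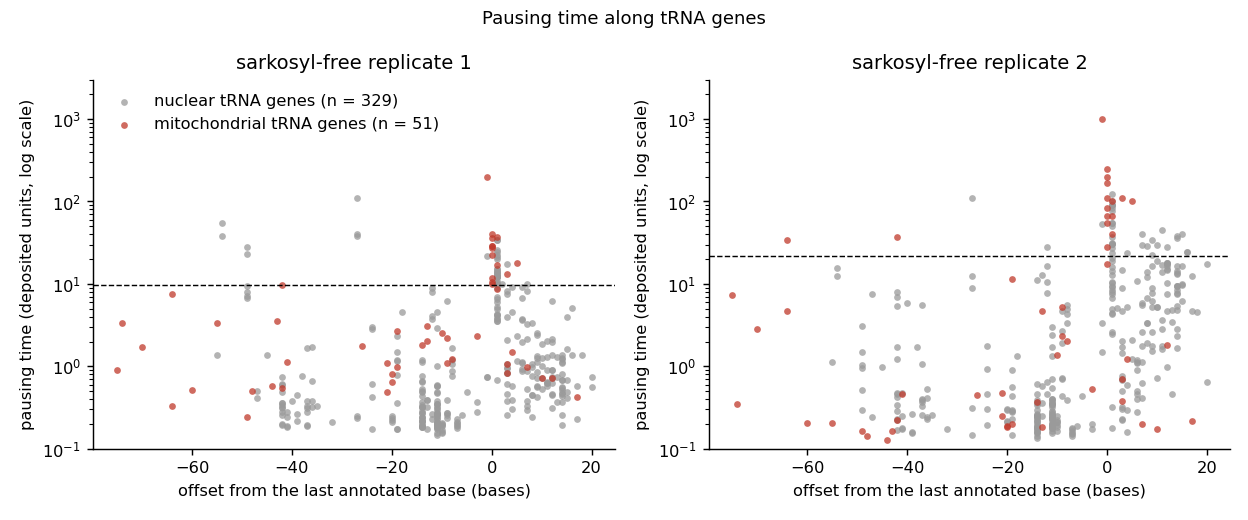
Pausing time (y axis, deposited units, log scale) of shared sites along tRNA genes by offset from the last annotated base (x axis, in bases, from -80 to 20), for 329 nuclear sites in grey and 51 mitochondrial sites in red; dashed lines are the selection values. Long times gather near the end: within 1 base of it the mitochondrial medians are 27.0 and 83.3, against 1.17 and 0.415 at the other mitochondrial sites, of which those before -80 are not drawn.

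In all, 582 members lay in 491 annotated genes. Of these genes 445 held 1 member, 26 held 2 and 20 held 3 or more. Counts per gene rise with the number of shared sites in it, which is given beside them. Median length of the coding host genes was 28756 bp for members and 29331 bp for other shared sites.

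XIST, the long non-coding RNA that coats the inactive X chromosome, held the most members, 12 of its 86 shared sites, spread from position 73820658 to 73851452 on the minus strand. Their times ran from 10.4 to 25.6 in replicate 1 and from 21.7 to 250 in replicate 2. Being on the minus strand of X, they could not be listed with sarkosyl. RBM39, a splicing factor, held 7 of 19, at 13.2 to 28.6 and 24.4 to 58.8, with 3 in exons, 3 in introns and 1 at 216 bp past a start.

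RPL37 held 6 of 30, at 13.2 to 41.7 and 23.3 to 100, with 4 in the annotated UTR. HNRNPU, which binds nuclear RNA and scaffolds chromatin, held 5 of 29, at 10.3 to 16.9 and 37.0 to 55.6. ZNF711, a zinc finger gene on X, held 5 of 34, at 11.2 to 41.7 and 23.3 to 35.7. RPL37A of the large ribosomal subunit held 4 of 14, at 10.2 to 18.2 and 23.3 to 52.6. ADAMTS1, a secreted protease gene, held 3 of 28. AC015813.2 and AC010197.2, coding models without a given name, held 5 of 28 and 3 of 16. AL592295.3, a lincRNA model, held 5 of 14, all of them at the glutamate tRNA ends that lie inside it.

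Groups of genes differed in the share of their shared sites that were members, beside 6.03% overall. Groups and members were chosen with earlier results of these data known, so the shares are descriptions. Immediate early genes, which respond to growth signals within minutes, had 7 of 37, 18.9%. IER5 had a site 33 bp past its start at 22.7 and 76.9 and another in its UTR at 24.4 and 45.5. EGR1 had one in its UTR at 14.9 and 32.3. IER2 had a coding site at 15.2 and 47.6.

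Several groups had a larger share than all shared sites, most on small counts. SR splicing factors had 7 of 58, 12.1%, with 3 of them in SRSF3. The hnRNP genes had 15 of 147, 10.2%. Hosts of small nucleolar RNAs had 8 of 74, 10.8%, with SNHG12 holding a pair 5 bp apart. Cytosolic ribosomal proteins had 38 of 450, 8.44%, in 27 of 69 genes. Zinc finger genes had 32 of 363, 8.82%, in 24 of 172 genes.

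Other groups were near or below it. Oxidative phosphorylation genes had 4 of 70, 5.71%, chaperones 6 of 82, 7.32%, and nucleolar assembly genes 3 of 48, 6.25%. Translation factors had 6 of 139, 4.32%, with EEF1A1, the elongation factor that brings tRNAs to the ribosome, at 25 and 45.5 in its UTR. Glycolysis genes had 1 of 39, 2.56%, in ALDOA. Replication-dependent histones had 2 of 89, 2.25%, both in the identical copies HIST2H2AA3 and HIST2H2AA4.

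Smaller groups rest on few sites. Mitochondrial ribosomal proteins had 4 of 26, proteasome genes 3 of 29, actin and tubulin genes 2 of 14, and snRNA genes 2 of 30. Pausing and elongation factors had 1 of 10, a site 39 bp past the start of HEXIM1, which restrains P-TEFb, at 40 and 33.3. Polymerase III genes other than tRNAs had 4 of 32, among them VTRNA1-3 and RNY1, a Y RNA, at 25 and 143. Groups were matched by gene name and include pseudogenes. The remaining polymerase III members were in RN7SKP71 and RNA5SP481, and the snRNA members in RNU2-63P and RNU6ATAC2P, all with pseudogene names. Reads from near-identical copies cannot be assigned with certainty. In 4 cases members shared the same window of sequence, 9 members in all.

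Another member stood within 50 bp of 8 members and within 1 kb of 74, 8.82%. Such counts depend on the size of the set, 6.03% of shared sites, and no spacing is read from them. Any shared site stood within 50 bp of 20.3% of members and 21.8% of other shared sites. Within 1 kb the shares were 47.4% and 45.2%. Sites of a sarkosyl-free table that were not shared, and so took no part in the selection, were compared by their nearness to members. Within 1 kb of a member their median time was 3.33 in replicate 1, against 2.26 near other shared sites only, and 8.93 against 9.01 in replicate 2. Those are log2 differences of 0.56 and -0.01, whose mean of 0.27 is smaller than its SD of 0.41 (n = 2 tables). Within 100 bp they were 0.28 and 0.55. In the sarkosyl tables the differences were -0.08 and -0.08 within 1 kb and 0.16 and 0.03 within 100 bp.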

How the data were processed

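HEK293 run-on libraries were represented by 4 deposited tables, 1 for each buffer and replicate number. Per the file headers, a table gives the mean, SD, Monte Carlo error, quartiles and median of a fitted rate per position, and a pausing time. This deposited pausing time is a model score from the authors, equal to the reciprocal of the deposited median; its unit, the fitted model and the site filter are not given in the sources used here. The submitters' processing notes name cutadapt 1.14, HISAT2 2.1.0, SAMtools, bedtools and hg38. No counts were given, so depth per site and its precision are unknown. No per-sample column was left without a group (0 columns), and 1 sample labelled as a treatment was not analysed here.

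Tables were joined by chromosome, strand and position, and quantiles were taken over shared sites. Positions were annotated with GENCODE 29 in the order mitochondrial, contig, within 300 bp past a start, exon, intron, antisense and outside genes. Starts were those of any annotated transcript. A site in several genes was given to a coding one, then to the shortest. Positions were read as counted from 1, because the base preference then fell on the same offset on both strands. Windows came from GENCODE 29 transcripts for 333 members and from RefSeq promoter windows (GRCh38.p14) for 42. Shares have exact Clopper-Pearson 95% intervals. No test over sites was made, as sites are not replicates. Named sites were the first 3 members by rank in each class and the first 10 of all, none on chromosome 8, those in both sarkosyl tables with the 5 longest and 5 shortest times, the 10 genes with most members, and members in the gene groups. Members and lists were chosen with earlier results of these data known. The scripts were tested on simulated data and used pandas 2.3.3 and numpy 2.4.6 under Python 3.11.15, with scipy 1.17.1 for intervals and matplotlib 3.10.9 for figures. Alternatives covered the quantile, its basis, contigs, spacing, replicates, the authors' SD, window sizes and position counting. Leaving out the minus strand of X or tRNA genes was chosen after seeing the data. One sequence is not reported here.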

Additional observations from a re-analysis of the deposited data

How the results depend on the processing

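No paired analysis was possible because no result comes from a test over samples. Of 100 values recomputed for 9 differences, 78 stayed within the error of the reported value (the SD over 2 tables or, for a share, its counting error), 14 moved further and 8 changed sign; the cause was not tested. Of 10 other sizes of the set, 4 were within 1.5 times the 839. The lower listing with sarkosyl ranged from -24.1 to -21.0 percentage points in 11 alternatives, and the exon excess from 2.22 to 5.90. The set itself had 1290 members at the 80% quantile, 452 at 90%, 548 with 1 site per 1 kb and 348 among the 50% of sites with the smaller relative SD. From 1 replicate alone it had 2108 or 2156. The sarkosyl log2 time difference was -0.16 at 80%, 0.15 at 90%, -0.44 with 1 site per 1 kb and 0.25 with the smaller SD, and -0.33 to 0.17 with a table left out. The difference in the share long with sarkosyl was -4.41 points at 80%, -4.03 at 90%, -7.35 with quantiles over all sites, -7.37 with 1 site per 1 kb, -7.44 with the smaller SD and -4.58 without tRNA genes, and -4.50 to 4.36 from 1 replicate alone. The share within 300 bp of a start differed by -2.13 points at 80% and by -6.91 to -0.0266 from 1 replicate alone. If positions counted from 0, the excess of guanine would be 2.93 points and that of AG -0.416. The excess at tRNA ends was 1.33 points on chromosomes 1 to 22 and X, 1.31 with 1 site per 1 kb and 1.20 to 1.56 from 1 replicate alone. Unknown depth limits every value.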
